A study of Mus musculus with 12 samples.

Results

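The BCL2 family sets the threshold at which a cell dies by apoptosis, and 8 of its genes were followed here through the estrous cycle of the mouse uterus together with Casp8, the initiator caspase of the death receptor pathway. The 9 genes were Bcl2, Bcl2l1, Mcl1, Bax, Bak1, Bcl2l11, Bbc3, Bid and Casp8, taken by their symbols from the 35896 genes to which the deposited transcripts could be assigned. Of these 9 genes, 8 had enough counts to be tested, and Bbc3 did not. Whole uteri of wild-type Swiss Webster females, an outbred stock, were profiled at an age of 8 to 12 weeks with 3' TagSeq, a method that samples polyadenylated RNA only close to its 3' end. The 4 groups were proestrus, estrus, metestrus and diestrus, with 3 samples each, and the labels name no treatment in any of them. How the stage was determined, the time of day and the processing batch were not given in the sources used here. The labels describe collection in triplicate without tying each sample to an animal, so the p-values measure the spread between these samples.

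In healthy cells the guardian proteins BCL2, BCL-XL (from Bcl2l1) and MCL1 hold the pore-forming proteins BAX and BAK (from Bak1) in check on the mitochondrial outer membrane. BH3-only proteins such as BIM (from Bcl2l11), PUMA (from Bbc3) and BID bind the guardians, and some activate BAX and BAK directly, after which cytochrome c is released and caspases are switched on. Caspase-8 acts upstream, at death receptors, and cleaves BID, which joins the receptor route to the mitochondrial one. Cell death and renewal of the epithelium accompany the fall and rise of ovarian hormones in the cycling uterus. The measurements below are of RNA, and much of the family's activity is set at the protein level.

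The libraries held 1652841 to 2200563 estimated counts, and values are given as CPM, gene counts scaled to library size with TMM factors. A count of 3, the limit that a count of 0 allows, stood for 1.37 to 1.89 CPM, which covers counting error only. The summed level of the uterine markers Esr1, Pgr, Hoxa10 and Hoxa11 was 684 to 778 CPM in proestrus and 401 to 443 in estrus. It was 675 to 846 CPM in metestrus and 816 to 957 in diestrus. Every estrus library lay below every library of the other stages, and 3 of the 4 markers were called lower in estrus than in proestrus (background 7.46%). Zp3, an oocyte gene, was at 0 in all libraries. The oviduct gene Ovgp1 was measured, with 502 counts in all. The 3 metestrus libraries lay far apart from each other. Their summed proliferation markers were 85.1 CPM in replicate 5, 427 CPM in replicate 6 and 198 CPM in replicate 7, and the metestrus results of Bcl2, Bcl2l1, Bcl2l11 and Bid are also given without the library that moves them most in either direction. In bulk tissue, fewer cells of a type and less RNA per cell cannot be told apart.

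Among the 8 tested genes, 2 changed over the 4 stages in edgeR's quasi-likelihood F test with Benjamini-Hochberg adjustment, against 23.2% of all 12052 genes tested. They were Bcl2l11 (adjusted p = 0.00215) and Bcl2 (adjusted p = 0.0443), a death-promoting and a survival gene, and both had their highest mean in estrus. The call of Bcl2 was lost in 12 of 20 alternatives, 9 of them fits without 1 library of proestrus, estrus or diestrus, with an adjusted p of up to 0.133. The other 6 did not pass, with adjusted p-values of 0.118 for Bak1, 0.219 for Mcl1, 0.454 for Bid, 0.465 for Bcl2l1, 0.722 for Bax and 0.730 for Casp8 in the same edgeR test. The median F over the 8 genes was 1.90, beside 2.34 over all genes tested. A share of 2 in 8 (25%) is close to the background.

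The promoters of these 2 genes are shown because the forkhead factors FOXO1 and FOXO3, known activators of Bcl2l11, are among the regulators measured below. Each sequence is the 250 bases before the transcription start in RefSeq (GRCm38.p6), 5′ to 3′ on the gene's strand. Bcl2 lies on the minus strand of chromosome 1 and its window is chr1:106714291-106714540. Bcl2l11 lies on the plus strand of chromosome 2 and has 2 windows in RefSeq. The one shown, chr2:128125788-128126037, holds a forkhead match, and the other, chr2:128127325-128127574, holds none. Capitals mark the forkhead core GTAAACA.
Bcl2: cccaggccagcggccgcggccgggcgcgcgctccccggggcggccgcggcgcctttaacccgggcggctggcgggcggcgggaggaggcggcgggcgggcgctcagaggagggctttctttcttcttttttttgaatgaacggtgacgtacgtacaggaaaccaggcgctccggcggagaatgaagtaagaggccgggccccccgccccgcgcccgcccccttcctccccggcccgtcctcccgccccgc
Bcl2l11: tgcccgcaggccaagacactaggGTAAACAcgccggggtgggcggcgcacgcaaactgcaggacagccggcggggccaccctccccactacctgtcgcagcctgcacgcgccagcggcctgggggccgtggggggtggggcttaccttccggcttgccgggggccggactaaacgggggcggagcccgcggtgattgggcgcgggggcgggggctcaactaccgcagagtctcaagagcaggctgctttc
The forkhead match of Bcl2l11 begins at position -227 from the start, on the gene's own strand. All 9 genes had at least 1 RefSeq promoter, and GTAAACA was found on either strand for Bcl2l11 in 1 of its 2 windows and for Bbc3 in 1 of its 3. It occurs in 3.17% of the 32851 promoter windows searched. This and the shares below count windows and not genes, and some genes have more than 1 window. The estrogen response element GGTCANNNTGACC, present in 0.0639% of windows, was found in none of the 9 genes. Its 5-base arm GGTCA occurred for Bcl2l1 and in the Bcl2l11 window that is not shown, but 35.2% of all windows hold that short word. The E-box CACGTG was found for Bax and Bbc3 and in 6.02% of all windows. The STAT motif TTCNNNGAA (7.02% of windows), the cyclic AMP response element TGACGTCA (1.55%) and the progesterone or glucocorticoid response element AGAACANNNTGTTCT (0.00913%) were found for none of the 9. A match describes letters in the window and not a bound site, and a part of FOXO1 or FOXO3 in the changes below was not tested.

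Bcl2, the founding survival gene of the family (ENSMUSG00000057329, GRCm38 chr1:106538178-106714274, minus strand), was at 45.1, 30.7 and 30.4 CPM in the proestrus libraries. In estrus it was at 67.4, 90.4 and 78.8 CPM. In metestrus the values were 117, 43.5 and 51.9 CPM, and in diestrus 58.3, 47.5 and 42.5 CPM. Every estrus library lay above every proestrus and every diestrus library, and metestrus replicate 5 was the highest of all 12. The proestrus mean was 35.4 ± 8.36 CPM and the estrus mean 78.9 ± 11.5 CPM (SD, n = 3 each). The fitted log2 difference between these stages was 1.16 ± 0.31 (SE; 95% interval 0.49 to 1.83), a 2.23-fold rise with an edgeR adjusted p of 0.0223. The call needed each of 4 libraries. The edgeR adjusted p was 0.0769 and 0.0908 when proestrus replicate 2 or 3 was omitted, and 0.0866 and 0.0639 when estrus replicate 4 or 5 was. The fold difference itself held its size, between 1.02 and 1.39 on the log2 scale over all alternatives.

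The return of Bcl2 from its estrus level depended on the metestrus libraries. The diestrus mean was 49.4 ± 8.12 CPM, a log2 difference of -0.67 from estrus (95% interval -1.32 to -0.02) that did not pass in the fit to all 12 libraries (edgeR adjusted p = 0.126) although the 2 stages did not overlap. Without metestrus replicate 5 the same difference was -0.67 with an adjusted p of 0.0161, and in a fit to the 6 estrus and diestrus libraries alone it was -0.66 (edgeR adjusted p = 0.0120). The metestrus mean was 70.7 ± 40.0 CPM with that library and 47.7 CPM without it. Metestrus differed from estrus by -0.15 on the log2 scale with replicate 5 (edgeR adjusted p = 0.806), and by -0.73 without it (adjusted p = 0.0416). Against proestrus, metestrus was 1.01 higher on the log2 scale, which missed the threshold (edgeR adjusted p = 0.0826). It passed in DESeq2 (adjusted p = 0.0413), without the filter on low counts (edgeR adjusted p = 0.0112) and, at 1.27, without metestrus replicate 6 (edgeR adjusted p = 0.0196). Without metestrus replicate 5 it was 0.43 (edgeR adjusted p = 0.284).

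The other 2 guardians moved less. Bcl2l1 (ENSMUSG00000007659, chr2:152780668-152831728) was at 31.4, 43.1 and 34.5 CPM in proestrus and at 43.3, 40.6 and 45.3 CPM in estrus. It was at 50.3, 28.4 and 60.8 CPM in metestrus and at 44.9, 50.9 and 48.7 CPM in diestrus. Proestrus and diestrus did not overlap, with means of 36.3 ± 6.09 and 48.2 ± 3.06 CPM, but the log2 difference of proestrus from diestrus, -0.40 (95% interval -0.88 to 0.07), did not pass (edgeR adjusted p = 0.321). From proestrus to estrus the log2 difference of Bcl2l1 was 0.25, with an interval of -0.24 to 0.73 that leaves room for a 1.5-fold change or more. The metestrus library with the lowest value, replicate 6, weighed on the comparison of Bcl2l1 with proestrus. The log2 difference was 0.36 with it (edgeR adjusted p = 0.393) and 0.61 without it (adjusted p = 0.0417). Without replicate 7, the highest, it was 0.14 (edgeR adjusted p = 0.822), and the metestrus mean was 39.4 CPM.

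Mcl1, a guardian whose protein turns over quickly (ENSMUSG00000038612, chr3:95658788-95663176) varied little. Its values were 177, 188 and 181 CPM in proestrus, 186, 185 and 201 CPM in estrus, 189, 181 and 196 CPM in metestrus, and 160, 162 and 156 CPM in diestrus. All 3 diestrus libraries lay below the other 9. The difference was small, with a diestrus mean of 159 ± 3.05 CPM against 191 ± 8.84 CPM in estrus, a log2 difference of -0.26 (95% interval -0.50 to -0.03). It did not pass in edgeR (adjusted p = 0.0940), and it passed where genes under a mean of 50 counts were left out (adjusted p = 0.0496). Between proestrus and estrus the interval for Mcl1 ran from -0.16 to 0.30 on the log2 scale, so a 1.5-fold change in either direction lies outside it.

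**Figure D1:**
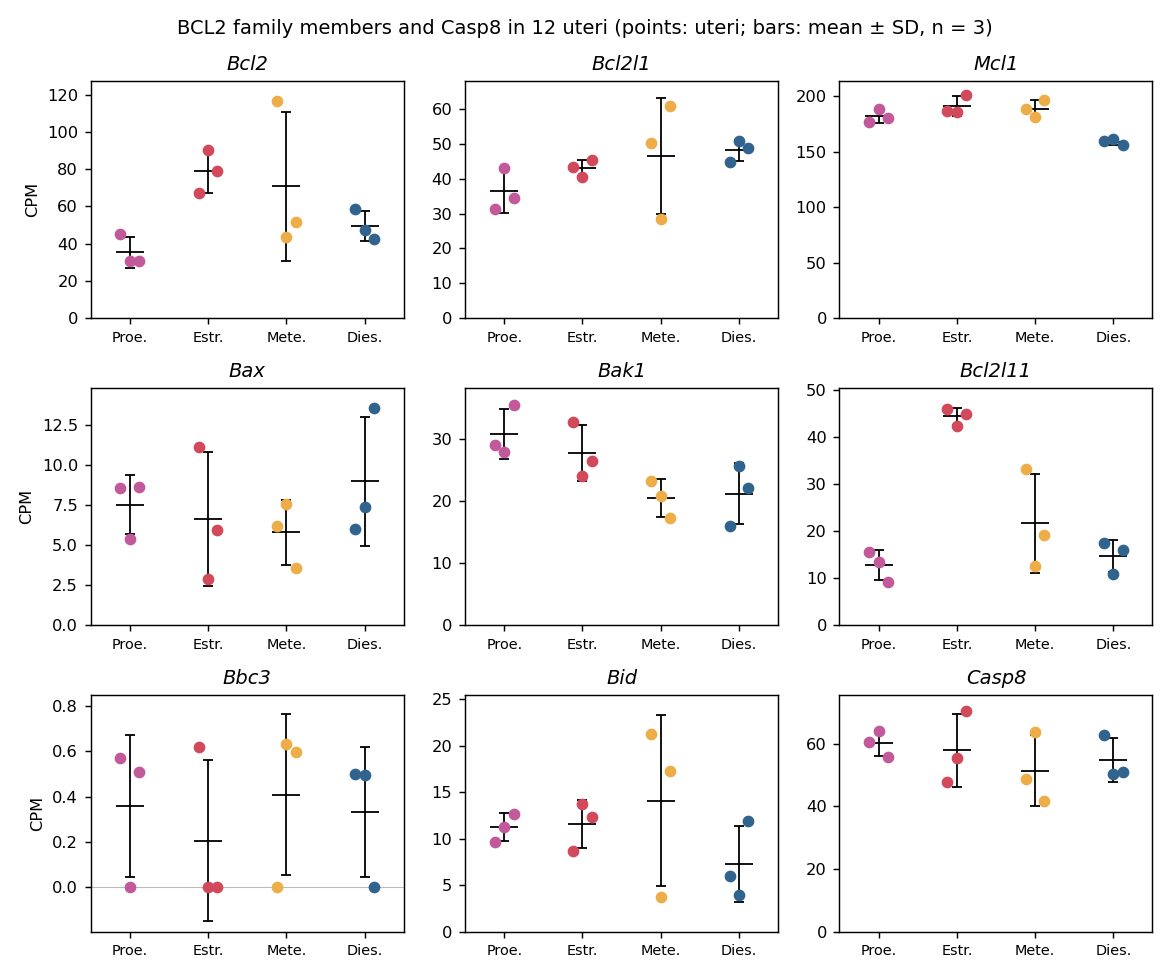
Level of each of the 9 genes in CPM (y axis, linear, with its own range for each gene) by stage (x axis: proestrus, estrus, metestrus, diestrus). Points are the 12 samples and black bars the mean ± SD (n = 3); Bcl2l11 and Bcl2 stand highest in estrus apart from metestrus replicate 5 of Bcl2, Mcl1 is lowest in diestrus, and every Bbc3 value lies under 1.37 CPM, the lowest floor of any library.

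The pore-forming genes showed no called change. Bak1 (ENSMUSG00000057789, chr17:27019810-27029009) was at 29.1, 28.0 and 35.5 CPM in proestrus and at 32.8, 24.0 and 26.6 CPM in estrus. It was at 23.3, 20.8 and 17.3 CPM in metestrus and at 15.9, 25.7 and 22.1 CPM in diestrus. Every proestrus library lay above every metestrus and every diestrus library. The log2 difference of metestrus from proestrus was -0.59 (95% interval -1.06 to -0.12, edgeR adjusted p = 0.135) and that of proestrus from diestrus 0.54 (0.08 to 1.00, adjusted p = 0.150). Bak1 shares 20.4% of its 31-base words with other genes, most of them with Ggnbp1, which overlaps it on the opposite strand. Whether the authors' counting used strand is not given in the sources used here, so reads of the 2 genes may be mixed and the Bak1 values are uncertain.

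Bax (ENSMUSG00000003873, chr7:45461697-45466898) was near the lower end of what the depth resolves, with 2.86 to 13.6 CPM in the 12 libraries. Its means were 7.52 ± 1.85 CPM in proestrus, 6.65 ± 4.18 in estrus, 5.79 ± 2.03 in metestrus and 8.99 ± 4.04 in diestrus, and all stages overlapped. The estrus mean was 4.41 CPM without estrus replicate 3. The interval for estrus against proestrus, -1.24 to 0.85 on the log2 scale, is wide enough to hold a 2-fold change downward, so a change of that size was not detectable with these samples. Bax shares 11.1% of its words with other genes, 9.89% with the overlapping gene model Gm45808.

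Bcl2l11, which encodes the BH3-only protein BIM (ENSMUSG00000027381, chr2:128126038-128162547, plus strand), had the clearest cycle of the 9 genes. It was at 15.4, 13.5 and 9.13 CPM in proestrus, and at 45.8, 42.3 and 44.9 CPM in estrus. In metestrus it was at 33.2, 12.6 and 19.1 CPM, and in diestrus at 17.4, 10.9 and 15.8 CPM. All 3 estrus libraries lay above the other 9, and metestrus replicate 5 was the highest of those 9. From proestrus to estrus Bcl2l11 rose 3.5-fold, a log2 difference of 1.81 ± 0.31 (SE; 95% interval 1.15 to 2.47; edgeR adjusted p = 0.00207). In diestrus it was at 0.333 times its estrus level, a log2 difference of -1.59 ± 0.30 (95% interval -2.23 to -0.95; edgeR adjusted p = 0.00219). Both differences passed whichever of the 12 libraries was omitted, and over 20 alternatives they ranged from 1.61 to 2.41 and from -1.73 to -1.38.

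The fall of Bcl2l11 from estrus to metestrus was less firm. The means were 44.3 ± 1.79 and 21.6 ± 10.5 CPM, and the log2 difference was -1.01 ± 0.29 (95% interval -1.63 to -0.39; edgeR adjusted p = 0.0484). The 2 stages did not overlap, but the adjusted p rose above 0.05, to between 0.0547 and 0.157, in 11 of the 12 fits with a library omitted. The exception was the fit without metestrus replicate 5, and the metestrus mean without that library was 15.8 CPM. Metestrus was 0.79 above proestrus on the log2 scale, which did not pass (edgeR adjusted p = 0.175), and without metestrus replicate 6 it was 1.06 above (adjusted p = 0.0404). Without metestrus replicate 5 the same difference was 0.33 (edgeR adjusted p = 0.570).

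The other BH3-only genes gave less. Bid, which caspase-8 cleaves into its active form (ENSMUSG00000004446, chr6:120891930-120916853), lay between 3.79 and 21.3 CPM and overlapped between all stages. Its means were 11.2 ± 1.5 CPM in proestrus, 11.6 ± 2.62 in estrus, 14.1 ± 9.16 in metestrus and 7.27 ± 4.12 in diestrus. The metestrus mean was 19.3 CPM without replicate 6 and 10.5 CPM without replicate 5, and metestrus against proestrus ranged from -0.0853 to 0.78 on the log2 scale without 1 library. Its interval for estrus against proestrus was -1.0 to 1.09 on the log2 scale. Its 3' end overlaps Bcl2l13 on the opposite strand, which holds 16.9% of its words, so its counts are uncertain in the same way as those of Bak1. Bbc3, which encodes PUMA (ENSMUSG00000002083, chr7:16308393-16318205), had 7 counts in the 12 libraries together and 0 or 1 in each. Every Bbc3 value lay under its library's floor, so its level in any stage was not detectable at this depth and it was not tested.

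Casp8 (ENSMUSG00000026029, chr1:58795374-58847503) was at 60.5, 64.2 and 55.8 CPM in proestrus and at 47.6, 55.5 and 70.5 CPM in estrus. It was at 48.8, 63.8 and 41.7 CPM in metestrus and at 62.8, 50.4 and 50.9 CPM in diestrus. No pair of stages separated. The intervals of its 6 pairwise log2 differences lay between -0.63 and 0.53, and its interval for estrus against proestrus, -0.44 to 0.34, holds no 1.5-fold change. Casp8 shares 8.64% of its words with other genes, nearly all with the gene model Gm20257.

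Over the 6 pairwise comparisons the calls of the 8 genes fell in 3. Any call was made for 2 of the 8, against 31.9% of all genes tested. From proestrus to estrus 2 of 8 rose (background 9.67%) and none fell (background 7.46%). From estrus to metestrus 1 of 8 fell (background 4.73%), and in diestrus against estrus 1 of 8 was lower (background 13%). None of the 8 was called in the main edgeR fit for diestrus against metestrus (background 0.224%), proestrus against diestrus (8.53%) or metestrus against proestrus (4.31%). At an unadjusted edgeR p under 0.05 those 3 comparisons held 1, 1 and 3 of the 8 genes. The share of all genes under that limit is not given here, so these counts are not read as a result about the 8. In the same 3 comparisons DESeq2 made 1 call among the 8, Bcl2 in metestrus against proestrus, and limma-voom made none. The estrus libraries enter 3 of the comparisons, so the calls in these share samples.

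**Figure D2:**
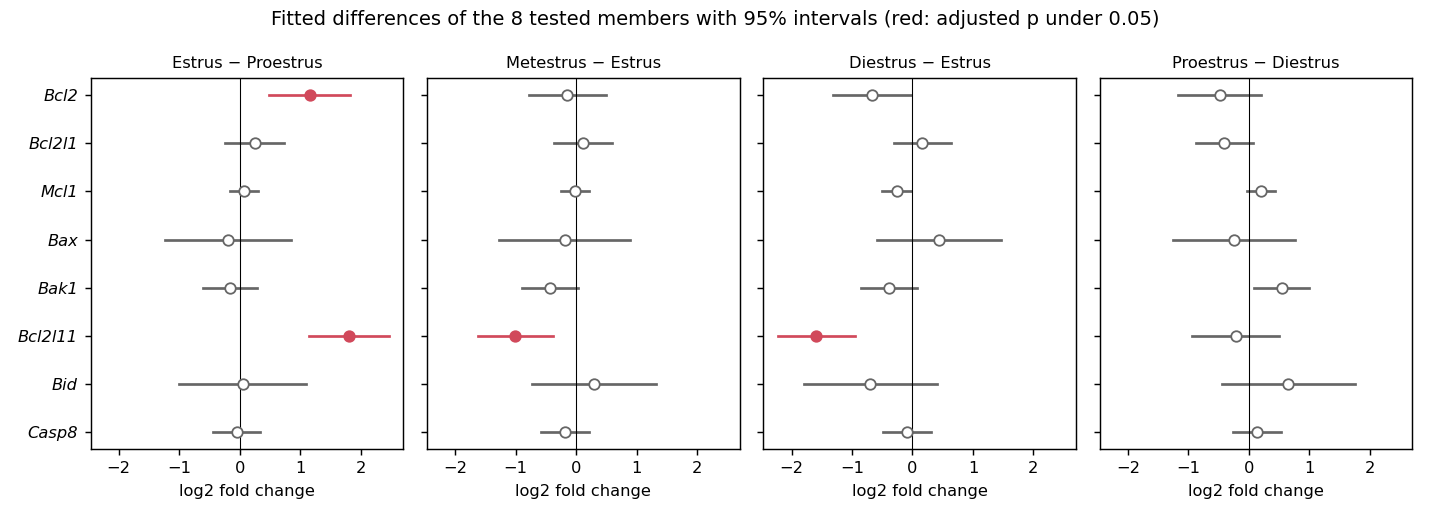
Fitted log2 fold changes of the 8 tested genes (x axis, with 95% intervals as lines) in 4 of the 6 comparisons between stages, 1 panel each. Red filled points passed an adjusted p of 0.05: Bcl2 and Bcl2l11 in estrus against proestrus at 1.16 and 1.81, and Bcl2l11 in metestrus and diestrus against estrus at -1.01 and -1.59.

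Because both a survival and a death gene were highest in estrus, their levels within each library were set against each other as log2 ratios, which are descriptions with no test. Ratios between genes carry the length and 3' end of each gene, so only their change between stages is read. The mean log2 ratio of Mcl1 to Bcl2l11 (± SD, n = 3 per stage) was 3.76 ± 0.36 in proestrus, 2.08 ± 0.07 in estrus, 3.16 ± 0.64 in metestrus and 3.37 ± 0.35 in diestrus. The 3 estrus values, 2.00 to 2.14, lay below the other 9, of which the lowest, 2.47, was metestrus replicate 5 beside 3.73 and 3.29 in replicates 6 and 7. Because Mcl1 varied little, this ratio largely restates the Bcl2l11 values and is not a separate result. The ratio of Bcl2 to Bcl2l11 varied less, at 1.41 ± 0.26, 0.81 ± 0.27, 1.62 ± 0.21 and 1.69 ± 0.33 in the same order, and its mean was again lowest in estrus. Its metestrus values were 1.78, 1.70 and 1.39, all above the 3 estrus values. Bcl2 against Bax was 2.09 ± 0.34 in proestrus, 3.51 ± 1.02 in estrus, 3.30 ± 0.84 in metestrus and 2.38 ± 0.76 in diestrus. Its estrus values, 2.49 to 4.53, overlapped those of metestrus (2.37 to 4.01) and diestrus (1.57 to 3.07), with few Bax counts in every library. Bcl2l1 against Bak1 was 0.22 ± 0.33 in proestrus, 0.62 ± 0.20 in estrus, 1.08 ± 0.66 in metestrus and 1.16 ± 0.24 in diestrus, and the proestrus and diestrus values did not overlap. Its metestrus values were 1.07, 0.43 and 1.75.

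Bcl2 and Bcl2l11 also followed each other from library to library, with a Pearson correlation of log2 CPM of 0.85 over the 12 libraries. These points share the stages and the libraries' composition, so the value is a description. The genes whose pattern was most like that of Bcl2 were Mxra8 (r = 0.931), Ldb1 and Bri3 (0.924 each). Mxra8 averaged 52.9, 129, 91.0 and 60.3 CPM in proestrus, estrus, metestrus and diestrus. Ldb1 averaged 48.5, 64.2, 62.7 and 48.9 CPM and did not pass the edgeR F test over the stages (adjusted p = 0.123). The genes nearest to Bcl2l11 were Nceh1 (r = 0.975), Mfsd1 (0.974) and Erbin (0.968). Nceh1 averaged 16.2, 72.1, 30.5 and 17.6 CPM over the same stages. Erbin averaged 99.8, 141, 120 and 108 CPM and did not pass that test either (edgeR adjusted p = 0.0674).

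The deposited values are per transcript, so the annotated form that held each gene's counts could be read. Bcl2-201, the long form whose 3' end lies at position 106538178 of chromosome 1, held 88.1% of the gene's counts over all libraries. The short form Bcl2-202, which ends at position 106710339, held the other 11.9%. Its share was 13.2% to 23.3% in proestrus (median 21.9%), 9.65% to 21.8% in estrus, 6.31% to 13.2% in metestrus and 7.95% to 12.0% in diestrus. Proestrus did not overlap diestrus in this share, on 36.7 and 28.1 estimated counts of the short form summed over 3 libraries each, and no test was made. The Bcl2 increase in estrus was held mostly by the long form, which had 159 estimated counts summed over the proestrus libraries and 382 over the estrus libraries, before scaling. Bcl2l11-205, which ends at the gene's 3' end, held 90.6% of Bcl2l11 counts. The exception was a diestrus library in which it held 42.4% and Bcl2l11-203 held 53.2%.

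**Figure D3:**
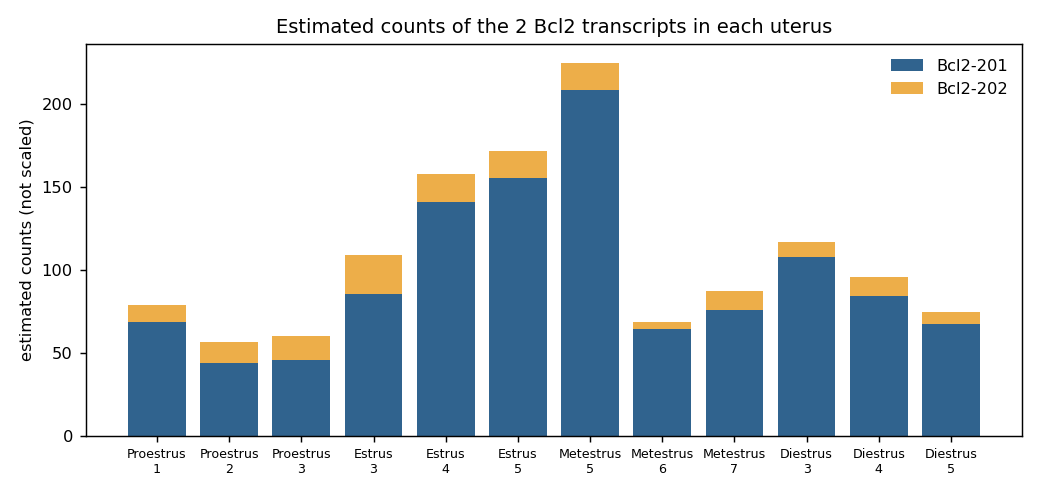
Estimated counts of the 2 annotated Bcl2 transcripts (y axis, not scaled for library size, stacked bars from 0) in each of the 12 samples (x axis, stage and replicate number). The long form Bcl2-201 (blue) holds 88.1% and the short form Bcl2-202 (yellow) 11.9% of all Bcl2 counts, and metestrus replicate 5 has the tallest bar.

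For the other single genes 1 transcript also held most counts. Mcl1-201 and Casp8-201 held 100% of their genes' counts. Bax-201 held 88.2%, Bak1-204 89.6%, Bid-201 90.5% and Bcl2l1-202 79.8%. The exception for Bak1 was metestrus replicate 6, in which Bak1-204 held 0 counts and Bak1-201, with the same 3' end, 86.1%. Both Bak1-204 and Bak1-201 are annotated as nonsense-mediated decay forms and not as protein-coding. The protein-coding Bak1-202 held 5.34% of the counts over all libraries. Its 3' end lies at position 27019810, beside 27019812 for Bak1-204 and Bak1-201, so the split among these Bak1 forms is uncertain. Bcl2l1-202 is joined at its 3' end by Bcl2l1-201, with 5.17% of the counts and an end within 4 bases, and 3' reads separate such forms poorly.

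The rest of the pathway was read from lists of 77 further genes, of which 67 were tested. Of these 67, 25 changed over the stages (37.3%, background 23.2%), and 16 of the 25 had their highest mean in estrus. Over all genes that changed, 46.8% were highest in estrus. From proestrus to estrus 13 of the 67 rose (background 9.67%) and 4 fell (background 7.46%). In diestrus against estrus 6 were higher (background 9.72%) and 18 lower (background 13%). None of the 67 was called between metestrus and diestrus in edgeR (background 0.224%). An unadjusted edgeR p under 0.05 was found there for 10 of the 67, and the share of all genes under that limit is not given here.

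**Figure D4:**
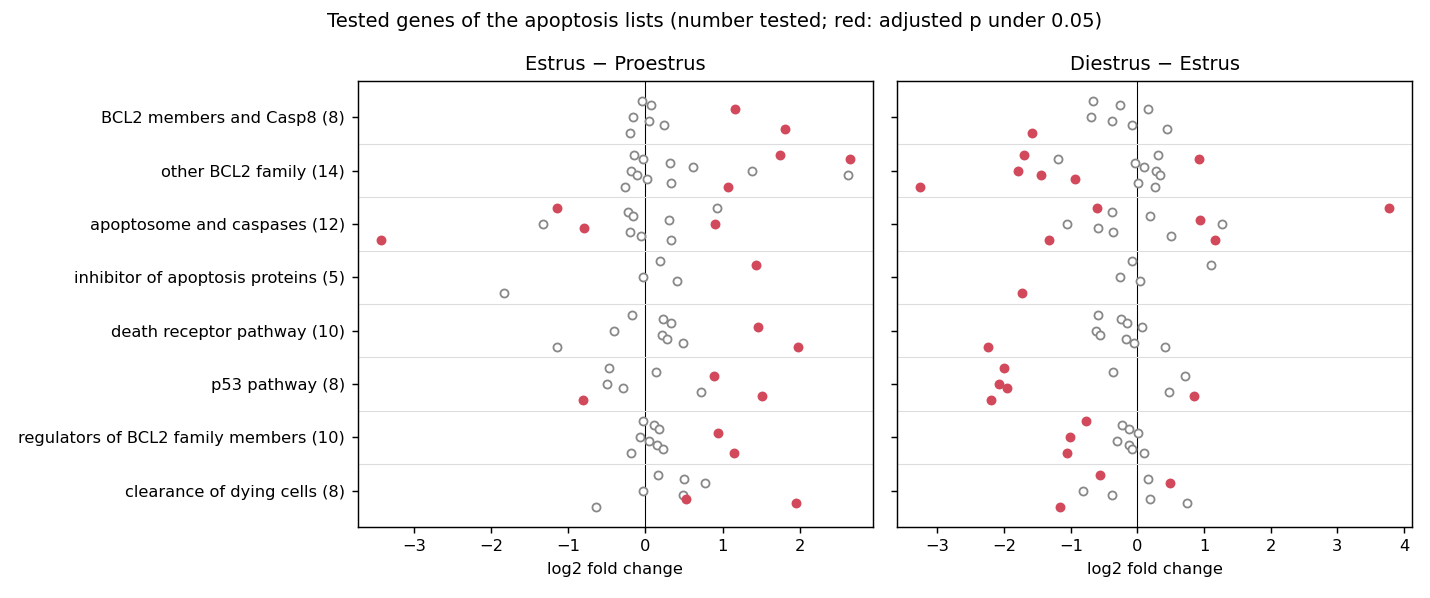
Fitted log2 fold change (x axis) of each tested gene in the 8 lists (y axis, with the number tested), for estrus against proestrus (left) and diestrus against estrus (right). Red filled points passed an adjusted p of 0.05. In the other BCL2 family list 3 of 14 genes rose into estrus (background 9.67%) and 5 were lower in diestrus (background 13%). The 2 points farthest out, beyond 3 on either side in the caspase list, are Htra2, whose estrus libraries held 3 counts or fewer.

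Among the other BCL2 family genes, 14 of 17 were tested and 5 changed over the stages (background 23.2%). Bnip3, a BH3-only-like protein of the mitochondrial membrane best known for its part in mitophagy, was at 12.6, 14.0 and 18.3 CPM in proestrus and at 102, 95.0 and 86.6 CPM in estrus. That rise was 2.65 ± 0.25 on the log2 scale (edgeR adjusted p = 6.74e-05), and diestrus lay 1.70 below estrus on that scale, at 34.4, 25.2 and 27.2 CPM (adjusted p = 0.000226 for a difference of -1.70). Its relative Bnip3l rose from 149, 140 and 90.3 CPM to 275, 247 and 273 CPM, a log2 difference of 1.07 ± 0.17 (edgeR adjusted p = 0.00177). Both genes share sequence with pseudogenes, 20.3% of words for Bnip3 and 23.7% for Bnip3l, so part of their counts could belong to those copies. Without any 1 library both rises still passed.

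Bmf, a BH3-only gene linked to loss of anchorage, was at 50.7, 49.8 and 51.3 CPM in estrus and at 10.5, 10.4 and 23.2 CPM in diestrus, a log2 difference of -1.80 ± 0.29 (edgeR adjusted p = 0.000815). Bok, a BAX-like pore former, went the other way. It was at 18.6, 26.3 and 27.5 CPM in estrus and at 41.4, 52.9 and 43.6 CPM in diestrus, a log2 difference of 0.92 ± 0.21 (edgeR adjusted p = 0.00642). Both differences passed whichever library was omitted. Bcl2l15 had 2.47, 8.58 and 5.50 CPM in estrus and 0.498, 0 and 1.13 CPM in diestrus, where every library was under its floor. Its F test call (edgeR adjusted p = 0.0366) was lost on omitting any 1 of 8 libraries, the adjusted p reaching 0.0902 when diestrus replicate 3 was omitted.

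Pmaip1, which encodes the BH3-only protein NOXA, an MCL1 partner, did not pass over the 4 stages (edgeR adjusted p = 0.0637). It passed in DESeq2 (adjusted p = 0.0354), without the filter on low counts (edgeR adjusted p = 0.0240) and without metestrus replicate 5 or 7 (0.0319 and 0.0347). Its proestrus libraries held 7.42, 5.39 and 1.52 CPM and its estrus libraries 13.6, 17.7 and 16.5 CPM, a log2 difference of 1.75 ± 0.49 (edgeR adjusted p = 0.0272). Omitting proestrus replicate 2 or 3 or estrus replicate 4 or 5 ended that call (edgeR adjusted p = 0.0621, 0.101, 0.0867 and 0.0777). Bcl2l14 was lower in diestrus than in estrus by a log2 difference of -1.45 (edgeR adjusted p = 0.0482) without an F test call, and kept that call only when metestrus replicate 6 or 7 was the library omitted. Bad, Bik, Hrk, Bcl2l2, Bcl2l12, Bcl2l13 and Bcl2a1b did not pass. Bcl2l10 had no count, and Bcl2a1a and Bcl2a1d, near copies of Bcl2a1b, were not tested.

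**Figure D5:**
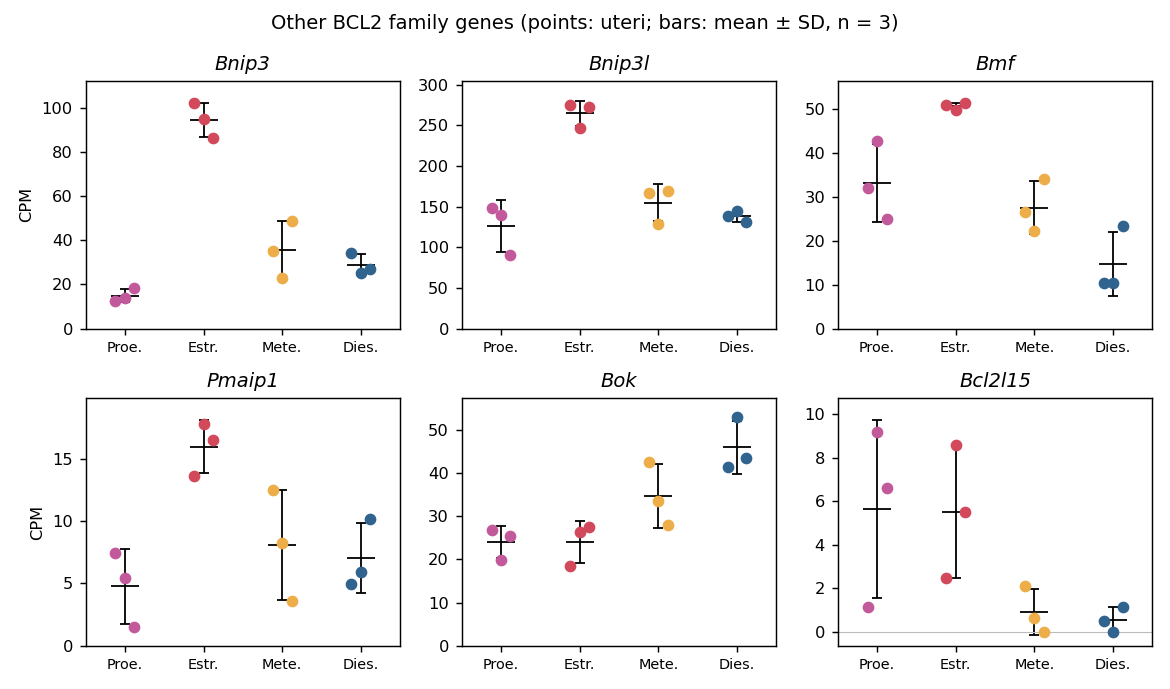
Level in CPM (y axis, linear, its own range for each gene) of 6 other BCL2 family genes by stage (x axis), with points for the 12 samples and bars for the mean ± SD (n = 3). In estrus Bnip3 sits between 86.6 and 102 CPM, above all 9 other samples, Bnip3l, Bmf and Pmaip1 are also highest there, and Bok is highest in diestrus.

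Downstream of the mitochondria, 12 of 13 apoptosome and caspase genes were tested and 5 changed (background 23.2%), in differing directions. Cycs, which encodes cytochrome c, fell from proestrus (97.5, 116 and 140 CPM) to estrus (57.5, 54.9 and 48.1 CPM), a log2 difference of -1.14 ± 0.18 (edgeR adjusted p = 0.00145). Cycs shares 29.3% of its words with other genes, mostly the copy Gm10053. Casp6, an executioner caspase, rose from 24.5, 20.5 and 25.4 CPM to 43.3, 40.0 and 47.6 CPM, a log2 difference of 0.90 ± 0.19 (edgeR adjusted p = 0.00593). Aifm1, a flavoprotein of the mitochondrial intermembrane space, was higher in diestrus than in estrus by 1.16 ± 0.23 on the log2 scale (edgeR adjusted p = 0.00282), though its F test call ended when estrus replicate 3 or 4 was omitted (0.0621 and 0.0527). Htra2, a protease that antagonizes IAP proteins, held 1.86, 1.14 and 0 CPM in estrus, at or under the floor, and 9.62 to 16.8 CPM in diestrus. It shares 37.6% of its words with other genes, 23.0% with Aup1, which makes its counts uncertain. Apaf1 and Casp9, the partners of cytochrome c in the apoptosome, did not pass.

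Of the 5 inhibitor of apoptosis genes, 1, Birc3, changed (background 23.2%) and Xiap, Birc2, Birc5 and Birc6 did not pass. The F test call of Birc3 held in 3 of 12 fits with a library omitted and in 9 of 19 alternatives in all. Its edgeR adjusted p reached 0.166 with counts scaled from TPM, and the gene shares 11.6% of its words with other genes. Birc3, which encodes the cIAP2 ubiquitin ligase, was at 6.84, 9.16 and 7.61 CPM in proestrus, 21.0, 22.3 and 20.6 CPM in estrus and 8.47, 4.94 and 5.66 CPM in diestrus. The estrus libraries lay above the other 9. Its rise into estrus, 1.43 ± 0.46 on the log2 scale (edgeR adjusted p = 0.0482), kept its call in only 3 of 12 fits with a library omitted, those lacking a metestrus library, and the adjusted p reached 0.137 when proestrus replicate 1 was omitted.

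In the death receptor pathway 10 of 13 genes were tested and 2 changed (background 23.2%). Tnfsf10, the ligand TRAIL, was at 9.70, 11.3 and 11.7 CPM in proestrus, 42.1, 49.2 and 38.9 CPM in estrus, 17.6, 18.3 and 19.7 CPM in metestrus and 7.98, 10.9 and 8.49 CPM in diestrus. The stages estrus and metestrus were each separate from all others. The log2 difference of Tnfsf10 was 1.98 ± 0.20 from proestrus to estrus (edgeR adjusted p = 0.000102) and -2.24 ± 0.20 in diestrus against estrus (adjusted p = 1.34e-05). Its receptor gene Tnfrsf10b, the adaptors Fadd and Tradd, and Cflar, the decoy of caspase-8, did not pass, as Casp8 itself did not. Tnfrsf21, a death domain receptor, rose by 1.46 ± 0.35 from proestrus to estrus (edgeR adjusted p = 0.0134), a call lost without proestrus replicate 1 (0.0566) or proestrus replicate 2 (0.0511). Its F test call (edgeR adjusted p = 0.0325) ended on omitting any 1 of 7 libraries, with 0.112 for proestrus replicate 1 or 2. Fas, Fasl and Tnf had too few counts to be tested.

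Of 8 genes of the p53 pathway, which drives Bbc3 and Pmaip1 after damage, 6 changed (background 23.2%). Trp53 itself was at 41.5, 66.9 and 60.9 CPM in estrus and at 110, 100 and 94.5 CPM in diestrus, a log2 difference of 0.85 ± 0.17 (edgeR adjusted p = 0.00316), and it shares 10.1% of its words with other genes. Cdkn1a, Perp, Gadd45a and Trp53inp1, which are p53 targets, went the other way. Cdkn1a, the cell cycle inhibitor p21, was at 46.4, 57.8 and 67.3 CPM in estrus and at 16.9, 12.4 and 13.6 CPM in diestrus, a log2 difference of -2.0 ± 0.21 (edgeR adjusted p = 4.44e-05). Perp, Gadd45a and Trp53inp1 were lower in diestrus than in estrus by log2 differences of -1.96, -2.08 and -2.20, and each of these passed whichever library was omitted. The F test call of Trp53inp1 ended when estrus replicate 5 was omitted (edgeR adjusted p = 0.0651). Aen, a nuclease gene and p53 target named here after its values were seen, ran like Trp53, with its lowest level in estrus. Its means were 27.9 ± 5.81 CPM in proestrus, 15.9 ± 4.08 in estrus, 32.2 ± 5.95 in metestrus and 26.0 ± 5.0 in diestrus. Its log2 differences were -0.81 ± 0.25 from proestrus to estrus (edgeR adjusted p = 0.0389) and 1.02 ± 0.25 from estrus to metestrus (adjusted p = 0.0249). These 2 calls held in 8 and 9 of 12 fits with a library omitted. The F test call of Aen held in 6 of those 12 fits and in 11 of 19 alternatives in all. Its edgeR adjusted p reached 0.248 with counts scaled from TPM. Mdm2 and Zmat3, also p53 targets, did not pass.

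Of 10 regulators of the family, 3 changed (background 23.2%). Foxo3, a forkhead activator of Bcl2l11, rose from proestrus (27.4, 29.6 and 27.4 CPM) to estrus (51.3, 60.1 and 50.8 CPM), a log2 difference of 0.94 ± 0.20 (edgeR adjusted p = 0.00653), and fell back to 27.4, 27.7 and 24.9 CPM in diestrus. Foxo1 was at 120 to 140 CPM in proestrus and 121 to 172 CPM in estrus, and was lower in diestrus than in estrus by a log2 difference of -0.77 ± 0.17 (edgeR adjusted p = 0.00620). Its F test call ended when diestrus replicate 4 or 5 was omitted (edgeR adjusted p = 0.0537 and 0.0993). Ddit3, the stress factor CHOP, rose by 1.15 ± 0.27 into estrus (edgeR adjusted p = 0.0116), a call lost without proestrus replicate 3 (0.0566), and its F test call ended without estrus replicate 3 (0.0770) or 5 (0.0668). The ubiquitin ligase and deubiquitinase genes that act on MCL1 protein, Huwe1, Fbxw7, March5 and Usp9x, did not pass. The part of these regulators in the change of Bcl2l11 was not tested.

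Marker sums of several cell types moved with the same stages. The 5 macrophage markers summed to 117 to 166 CPM in proestrus, 290 to 317 in estrus, 161 to 255 in metestrus and 160 to 203 in diestrus. All 4 that were tested rose from proestrus to estrus (background 9.67%). The 6 lymphocyte and natural killer markers summed to 19.3 to 26.4 CPM in proestrus, 52.6 to 66.9 in estrus, 34.7 to 84.7 in metestrus and 26.0 to 45.4 in diestrus. For both sums every estrus library lay above every proestrus and diestrus library, as for Bcl2 and Bcl2l11. The 6 epithelial markers were 1620 to 2150 CPM in proestrus, 1330 to 1690 in estrus, 537 to 1090 in metestrus and 481 to 698 in diestrus. All 6 were lower in diestrus than in estrus (background 13%). The 5 smooth muscle markers summed to 5590 to 7670 CPM in proestrus, 7400 to 9450 in estrus, 4960 to 6640 in metestrus and 5550 to 5960 in diestrus. Of these 5, Myh11 and Tagln rose into estrus (background 9.67%). Both were lower in metestrus (background 4.73%) and in diestrus (background 13%) than in estrus. The 4 ovary and oviduct markers summed to 10.3 to 22.8 CPM in proestrus, 40.8 to 50.1 in estrus, 7.26 to 25.2 in metestrus and 5.44 to 28.4 in diestrus, so that, as for Bcl2l11, all 3 estrus libraries lay above the other 9. Nearly all of that sum was Ovgp1, the oviductal glycoprotein, at a mean of 14.5 CPM in proestrus and 44.8 in estrus, a log2 difference of 1.61 (edgeR adjusted p = 0.0322). Proliferation markers summed to 316 to 462 CPM in proestrus and 114 to 122 in estrus. The 6 stroma markers summed to 9300 to 9410 CPM in proestrus, 7650 to 8170 in estrus and 6680 to 8980 in diestrus. In metestrus the stroma sum was 5002 CPM in replicate 5, 10890 in replicate 6 and 9784 in replicate 7. The 4 endothelium markers summed to 1410 to 1550 CPM in proestrus and 1460 to 2010 in estrus. Their sum was 1490 to 1690 CPM in metestrus and 1210 to 1410 in diestrus, and none of the 4 was called. Neutrophil markers summed to 4.58 to 58.3 CPM over the libraries, and of the eosinophil markers Epx was at 0. The part of these cell types in the changes of Bcl2, Bcl2l11 and the other genes was not tested.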

How the data were processed

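The 12 libraries were made by 3' TagSeq from whole uterus. Each sample came with its own table of 119414 transcripts. The deposited estimated counts were unscaled and mostly not whole, and the deposited TPM were used only as an alternative, per the file headers. FastQC, kallisto and DESeq2 appear in the submitters' processing notes, and the transcript set, genome build and strand setting are not given in the sources used here. Transcripts were matched without version to GENCODE M21 (GRCm38, 97.7% matched), and the unmatched held 0.619% to 0.774% of counts. Counts were summed per gene and rounded. The protocol names no molecular identifiers, and PCR copies remain.

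edgeR 4.0.16 (R 4.3.3) was used with filterByExpr by stage (12052 genes), TMM factors of 0.908 to 1.05, a quasi-likelihood fit with stage alone over all 12 libraries (biological coefficient of variation 20.6%), an F test and 6 two-sided pairwise contrasts. Calls were made at a Benjamini-Hochberg adjusted p under 0.05 over all genes tested, and log2 values had a prior count of 2. Shared sequence was the share of a gene's 31-base transcript words found in other genes. No 2 libraries held identical values, the highest correlation of log2 counts between libraries being 0.979.

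The genes and lists were chosen with earlier results of these data known. Named genes were the 9 members, of each other list up to 5 genes with the smallest p among those called in the F test and those needed to account for the list, and the 3 genes nearest in pattern to each called member. A gene of the caspase list that this rule names is not reported here. Alternatives were RLE size factors, library totals, no filter, a minimum mean of 50 counts, DESeq2 1.42.0, limma-voom (limma 3.58.1), counts scaled from TPM, a replicate block, each library left out, and fits to the 6 libraries of 2 stages.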

Additional observations from a re-analysis of the deposited data

How the results depend on the processing

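Bcl2l11 was called over the stages in all 19 alternatives that tested it. Bcl2 was called in 8 of 20, with adjusted p-values from 0.00284 to 0.133. The count of 2 members called over the stages therefore became 1 with library totals, limma-voom and counts scaled from TPM (Bcl2 lost, the cause was not tested) and 1 with a minimum mean of 50 counts, which left Bcl2l11 untested. Leaving out 1 library gave 1 to 2, and 1 in the 9 fits without a proestrus, estrus or diestrus library. The count called in any comparison, 2, became 1 with counts scaled from TPM and 1 to 3 without 1 library (1 without proestrus replicate 2 or 3 or estrus replicate 4 or 5, 3 without metestrus replicate 6). The 25 other pathway genes called ranged from 17 without estrus replicate 5 to 30 without the filter on low counts. Over all genes tested those 2 fits called 1910 of 12335 and 3345 of 20686, so the range is not a result about the pathway alone. The main fit called 2793 of the 12052 genes it tested. The number tested changed with the setting, and 1844 of 5481 were called with the minimum mean and 1657 of 9657 with counts scaled from TPM. Same-numbered libraries of different stages did not deviate together (7 pairs, r from -0.043 to 0.163, median -0.004), so the numbers are not taken as pairs. Numbers 1 and 2 occur only in proestrus, and numbers 6 and 7 only in metestrus. In the fit with the replicate block proestrus therefore rested on replicate 3 alone, and metestrus on replicate 5 alone. The Bcl2 differences in that fit were 2.05 (metestrus against proestrus), -1.34 (diestrus against metestrus) and -0.68 (diestrus against estrus). The first 2 rest on metestrus replicate 5, the highest Bcl2 library. The Bcl2l11 difference of metestrus from estrus was -0.47. Uncalled log2 differences changed sign in 32 cases. With the replicate block, Bcl2 became 0.66 in metestrus against estrus, Bcl2l1 -0.018 and Bak1 -0.15 in diestrus against metestrus, Bid -0.46 and Casp8 0.035 in estrus against proestrus. Bcl2l1 became -0.13 in diestrus against metestrus with counts scaled from TPM. Mcl1 became 0.0163 in metestrus against estrus without the filter and 0.0159 in the 6 libraries alone. Without 1 library, metestrus against estrus ranged from -0.73 to 0.13 for Bcl2, -0.091 to 0.39 for Bcl2l1, -0.0355 to 0.0362 for Mcl1, -0.50 to 0.36 for Bax, -0.13 to 0.75 for Bid and -0.33 to 0.000299 for Casp8. Diestrus against metestrus ranged from -0.78 to 0.0544 for Bcl2, -0.21 to 0.27 for Bcl2l1, -0.12 to 0.22 for Bak1 and -0.0358 to 0.27 for Casp8. Estrus against proestrus ranged from -0.73 to 0.12 for Bax, -0.11 to 0.21 for Bid and -0.23 to 0.0699 for Casp8. Proestrus against diestrus ranged from -0.47 to 0.17 for Bax, metestrus against proestrus from -0.0853 to 0.78 for Bid, and diestrus against estrus from -0.21 to 0.0931 for Casp8. The median over all genes stayed within 0.07 of 0 under each scaling. Depth limits Bbc3, which lay under the floor in every library.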

Other observations

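Of 11 genes for the clearance of dying cells, 8 were tested and 3 changed over the stages, against a background of 23.2%. The F test calls of Mfge8 (edgeR adjusted p = 0.0369) and Axl (0.0394) were each kept in 4 of 12 fits that left out 1 library, and in 8 and 10 of 20 alternatives in all. With 1 library left out their adjusted p reached 0.114 for Mfge8 and 0.0917 for Axl, both without estrus replicate 3. Pros1, a ligand that bridges phosphatidylserine on dying cells to TAM receptors, was at 15.4, 19.9 and 14.2 CPM in proestrus, 57.5, 78.4 and 56.3 CPM in estrus and 26.9, 37.1 and 21.5 CPM in diestrus. The estrus libraries lay above the other 9. Its rise into estrus was 1.95 ± 0.24 on the log2 scale (edgeR adjusted p = 0.000434) and passed without any 1 library. Mfge8, another bridging protein, rose by 0.53 ± 0.16 from proestrus to estrus (edgeR adjusted p = 0.0329), a call kept in 7 of 12 fits that left out 1 library. Its adjusted p was 0.0643 without estrus replicate 5 and 0.130 without proestrus replicate 2, and between these without proestrus replicate 3, estrus replicate 3 or estrus replicate 4. Axl, a TAM receptor, was higher in diestrus than in estrus by 0.49 ± 0.16 (edgeR adjusted p = 0.0419), a call kept in 4 of 12 such fits, those without a metestrus library or diestrus replicate 4. Gas6, Mertk, Stab1, Elmo1 and Dock1 did not pass, and Tyro3, Stab2 and Timd4 had too few counts to be tested.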
